A study of Mus musculus with 3 samples.

Results

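Remote peaks were the ChIP-seq peaks that lay over 50 kb from the span of every RefSeq protein-coding gene. They were taken from all 3 peak lists, on autosomes 1 to 19 and the X chromosome, with the distance measured from the edge of the peak to the edge of the gene span. The rule found 323 remote peaks among 829 peaks on these chromosomes and 870 peaks in all. Of these, 80 of 241 came from the control Arid1a list (33.2%, exact Clopper-Pearson 95% interval 27.3% to 39.5%), 148 of 365 from the knockout Arid1a list (40.5%, 35.5% to 45.8%) and 95 of 223 from the control HDAC6 list (42.6%, 36.0% to 49.4%). All intervals given here reflect counting error alone and take neighbouring peaks to be independent of each other.

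The chromatin came from primary mouse pancreatic islets that had been pooled in medium with 11.1 mM glucose, fixed in 1% formaldehyde for 10 minutes and sonicated. Control islets (genotype "con" in the labels) were precipitated with an Arid1a antibody or an HDAC6 antibody, the second spelled HADC6 in the labels and read as HDAC6 from the series title. Knockout islets (genotype "arid1a ko", named PCAL/L in the series text) lacked Arid1a in the pancreas and were precipitated with the Arid1a antibody. The driver of the deletion, the ages of the mice, the number of mice pooled, and whether the same no-IP library served all lists are not given in the sources used here. Each group was 1 library, without replicates. No value therefore carries a replicate error, no genotype or antibody was tested against another, and a peak list shows neither whether Arid1a was lost nor which islet cell types were present.

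Arid1a belongs to the SWI/SNF complex and binds DNA within it; this complex moves nucleosomes and is known for working at enhancers, many of which lie far from the genes they act on. HDAC6 is a deacetylase that is mostly cytoplasmic and best known for acting on tubulin. Long gaps between protein-coding genes often flank genes of development and of neuronal adhesion, and they also hold pseudogenes, noncoding RNA genes and tandem repeats. Repeated sequence that an assembly holds in too few copies gathers reads in any library, with or without an antibody, so the no-IP background of each remote peak is given beside its height.

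Of the RefSeq promoter windows (250 bases before to 50 after a gene's start in the table), 0 overlapped a remote peak, which the distance rule fixes in advance for protein-coding genes. Within 1000 bp of a remote peak lay 1 mature miRNA. It is shown because it borders the group of remote peaks with the most members of high background, at the start of chromosome 9, described below. The sequence is RefSeq's (GRCm38.p6, chr9:3038680-3038698, minus strand, 19 bases), written 5′ to 3′ with the seed, bases 2 to 8, in capitals.
mmu-miR-101c: aCAGUACUgugauaacuga
The closest peaks ended 424 bp from its precursor gene, Mir101c, in the knockout Arid1a list and 491 bp from it in the control HDAC6 list.

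The median remote peak lay 202.3 kb from its nearest protein-coding gene. The gap between genes had a median length of 735.2 kb over the 283 remote peaks with a gene on each side, and 40 had none on 1 side. Distances over 500 kb were measured for 10 control Arid1a, 22 knockout Arid1a and 13 control HDAC6 peaks, and over 1000 kb for 4, 9 and 4. The farthest control Arid1a peak (chromosome 15, 14534710 to 14535074, pileup 28) was 1358 kb from Cdh6 and was followed by Cdh9, both of them cadherin adhesion genes. The farthest control HDAC6 peak (chromosome 1, 113403097 to 113403472, pileup 16) was 1538 kb from Dsel, in the gap that ends at Cntnap5a, a neurexin family gene. Neither was in another list. The farthest knockout peak, 1322 kb from Iftap, was in all 3 lists. Near the limit, the 2 innermost remote peaks were 50.05 and 51.15 kb from a gene in the control Arid1a list, 51.28 and 51.74 kb in the knockout list and 50.52 and 52.75 kb in the HDAC6 list. The 2 peaks just under the limit were at 46.92 and 46.59 kb, 48.15 and 47.27 kb, and 48.06 and 47.11 kb in the same order.

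Pileup is the number of ChIP fragments over the summit, and fold is the authors' enrichment over the no-IP library, used here to describe peaks within a list. Pileups are not scaled for the depth of a library. Median pileups of remote peaks were 23.5, 15.5 and 23 fragments in the control Arid1a, knockout Arid1a and HDAC6 lists, and median folds 5.42, 4.94 and 5.61. Peaks nearer to genes had median pileups of 18, 14 and 17 and median folds of 4.81, 5.05 and 4.90. The lowest remote pileup was 10, 8 and 9 fragments, and 34 of 148 knockout remote peaks (23.0%) had 10 fragments or fewer, against 4 of 80 (5.0%) and 6 of 95 (6.32%) in the control lists. The same held for 18.4% of knockout peaks nearer to genes and for 3.73% and 9.38% of the nearer control Arid1a and HDAC6 peaks, so the low heights marked the knockout list in both positions. A fold above 10 was given to 8.75%, 8.11% and 10.53% of remote peaks (7, 12 and 10) and to 4.97%, 2.76% and 2.34% of nearer peaks (8, 6 and 3). The intervals of these remote and nearer shares met in each list. The highest folds were 18.9, 15.6 and 17.4 among remote peaks and 92.7, 14.5 and 279.6 among nearer peaks. A q-value above 0.05 was given to 0 remote peaks in each list and to 6, 0 and 3 nearer peaks.

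**Figure D1:**
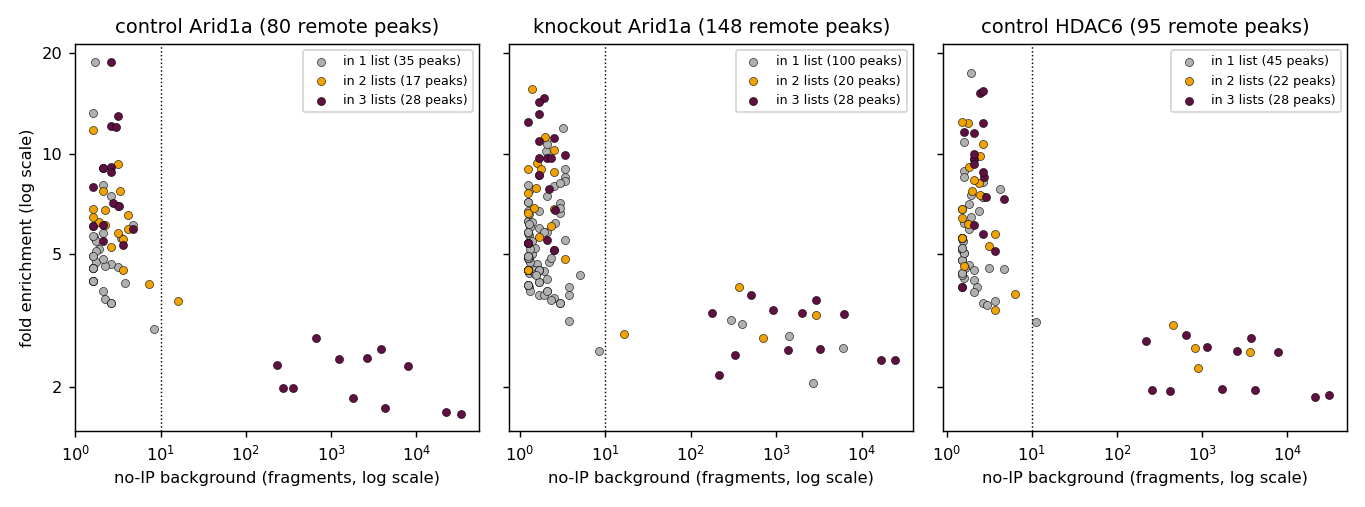
Each point is a remote peak of one list, with the no-IP background at its summit (fragments, log scale) on the horizontal axis, the authors' fold (log scale) on the vertical axis and the colour giving the number of lists in which it was called; the dotted line marks 10 fragments. Most peaks sit left of the line, with folds up to 18.9, and the 13, 21 and 17 peaks on its right have folds up to 4.002.

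The no-IP background separated the remote peaks into ranges that hardly met. In the control Arid1a list it was 10 fragments or more at 13 of 80 remote peaks (16.2%, 8.95% to 26.2%). The knockout list had 21 of 148 such peaks (14.2%, 9.003% to 20.9%) and the HDAC6 list 17 of 95 (17.9%, 10.8% to 27.1%). Among peaks nearer to genes the same held for 3.73% (1.38% to 7.93%), 4.61% (2.23% to 8.31%) and 4.69% (1.74% to 9.92%), and the intervals of remote and nearer peaks did not overlap in any list. Most of the high-background remote peaks, 9, 15 and 13, lay in 1 stretch of 38.22 kb at the start of chromosome 9. The intervals count them as independent, so their separation cannot speak for remote peaks in general. At most remote peaks the background was instead close to the smallest of the list, with medians of 2.62, 1.67 and 2.11 fragments over minima of 1.636, 1.225 and 1.496. Since reads per library are not given in the sources used here, relative depth was judged roughly from these minima. A knockout peak could be called on fewer fragments than a control peak. Pileups did not follow the same ratio. At the 12 high-background sites in all lists, the knockout pileup was 1.07 times that of control Arid1a at the median, and the knockout background 0.763 times. What this lower minimum did to the length of the knockout list was not tested.

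Recurrence, an overlap of at least 1 bp with a peak of another list, was counted for remote peaks and for all peaks on the same chromosomes. Of the 80 control Arid1a remote peaks, 36 (45.0%, 33.9% to 56.5%) overlapped a knockout Arid1a peak, beside 39.0% of all control Arid1a peaks. An HDAC6 peak was overlapped by 37 of them (46.25%, 35.0% to 57.8%), beside 33.2% of all. At least 1 other list had a peak at 45 (56.25%), beside 49.8%, and both other lists at 28 (35.0%, 24.7% to 46.5%), beside 22.4%. Of the control Arid1a peaks nearer to genes, 26.7% (20.05% to 34.2%) met an HDAC6 peak and 16.15% (10.8% to 22.8%) peaks of both other lists. These intervals and those of the remote peaks did not meet, whereas those for the knockout and for at least 1 other list did. Among peaks with a background under 10, the intervals of remote and nearer peaks met for both of the former. An HDAC6 peak was then overlapped by 37.3% of remote (25.8% to 49.99%) and 25.8% of nearer control Arid1a peaks (19.1% to 33.4%), and peaks of both other lists by 23.9% (14.3% to 35.9%) and 15.5% (10.2% to 22.2%).

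In the longer knockout list, 36 of 148 remote peaks (24.3%, 17.6% to 32.0%) overlapped a control Arid1a peak, beside 26.0% of all knockout peaks, and 40 (27.0%, 20.1% to 34.9%) overlapped an HDAC6 peak, beside 23.3%. A peak in at least 1 other list was found for 48 (32.4%), beside 34.8%, and in both for 28 (18.9%), beside 14.5%. In the HDAC6 list, 37 of 95 remote peaks (38.9%, 29.1% to 49.5%) overlapped a control Arid1a peak, beside 35.9% of all HDAC6 peaks, and 41 (43.2%, 33.0% to 53.7%) overlapped a knockout Arid1a peak, beside 38.6%. At least 1 other list was met by 50 (52.6%), beside 50.7%, and both by 28 (29.5%), beside 23.8%. For these 2 lists every interval of the remote share held the share over all peaks.

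Joining remote peaks that overlapped gave 237 remote sites, of which 180 were in 1 list, 29 in 2 and 28 in all 3. The knockout Arid1a list alone accounted for 100 sites, the control HDAC6 list alone for 45 and the control Arid1a list alone for 35. The knockout list was also the longest, with 365 peaks on these chromosomes against 223 and 241. By peak, 32.4% of its remote peaks met another list, beside 34.8% of all its peaks. The pairs were close in number, with 8 sites in both Arid1a lists, 9 in both control lists and 12 in the knockout Arid1a and HDAC6 lists, a pair that shares neither antibody nor genotype. Sites were not counted over all peaks, so these counts of sites are not read as a trait of remote sites. Of the 28 sites in all 3 lists, 12 stood on a background of 10 or more, 5 lay between the genes Hrh1 and Atg7 on chromosome 6, and 11 lay elsewhere on low background. Among peaks with a background under 10, those in all 3 lists were 16 of 67 control Arid1a, 16 of 127 knockout and 16 of 78 HDAC6 peaks (23.9%, 12.6% and 20.5%), beside 18.0%, 11.7% and 19.5% of all peaks with such a background. The remote shares were near these.

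**Figure D2:**
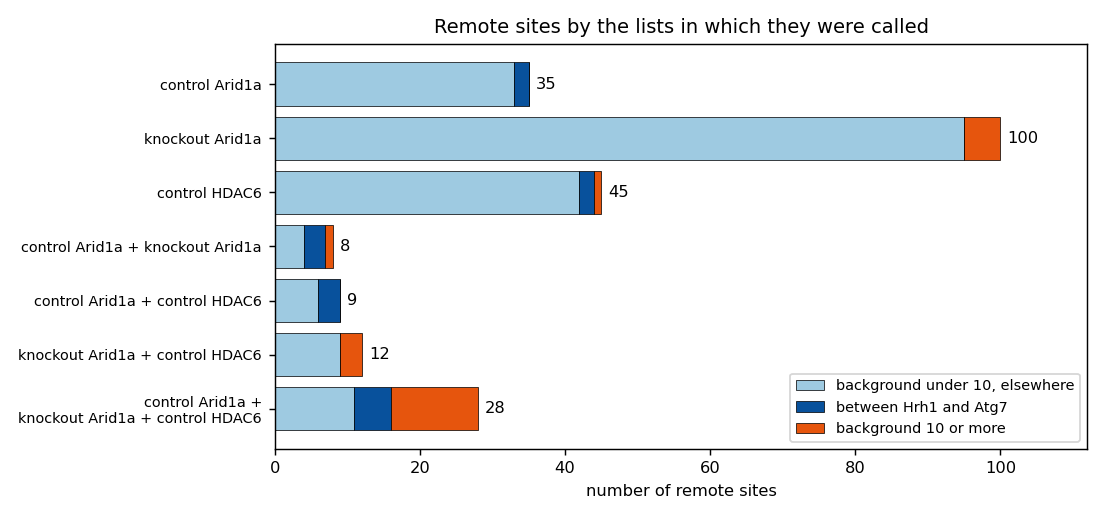
Bars give the number of remote sites (horizontal axis) called in each combination of the 3 lists (vertical axis), divided by background and by position between Hrh1 and Atg7. Sites of the knockout Arid1a list alone form the longest bar with 100, and the bar of 28 sites in all lists is the one in which low-background sites elsewhere, 11, are fewer than the other kinds together.

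The 11 low-background sites outside the Hrh1 to Atg7 gap that were in all 3 lists had pileups of 15 to 43 fragments in control Arid1a, 11 to 42 in knockout Arid1a and 9 to 44 in control HDAC6. Their summits were within 50 bp of each other over the 3 lists at 9 of the 11 sites. Highest by its lowest fold was a site on chromosome 2 (100238103 to 100238505), inside a gap of 3929 kb between Lrrc4c, a synaptic adhesion gene, and Iftap. Its pileup was 43 in control Arid1a, 29 in knockout Arid1a and 44 in HDAC6, with folds of 12.1, 9.72 and 12.4. A site in the 113.9 kb between the predicted genes Gm6729 and Gm5174 on chromosome 10 (86596603 to 86597128) had 27, 28 and 29 fragments. Likewise a site on chromosome 11 (41097082 to 41097521), 341.8 kb from Ccng1, the gene of cyclin G, had 27, 25 and 28. At these last sites the 3 libraries gave almost the same number of fragments, not scaled for depth.

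Other sites in this set had unequal heights, again not scaled for depth. Between Myc, the proto-oncogene, and Gsdmc, a gasdermin gene, a site on chromosome 15 (63562321 to 63562894) had 20, 27 and 29 fragments in the order control Arid1a, knockout Arid1a, HDAC6. Further along chromosome 15 (50484501 to 50485016), a site 169.7 kb from Trps1, a GATA-type transcriptional repressor, had 18, 37 and 35, with folds of 6.13, 14.2 and 11.6. There the knockout pileup was 2.06 times that of control Arid1a, the highest such ratio among the 28 sites in all lists. A site 246.1 kb from Ipmk, an inositol phosphate kinase gene (chromosome 10, 71631936 to 71632381), had 31, 34 and 18, so here HDAC6 was the low library. Between Tbc1d2b and the zinc finger gene Zic1 (chromosome 9, 90455502 to 90455887) the pileups were 32, 17 and 31, and the knockout was low. No order of the 3 libraries held across these sites, and over all 11 the median pileup was 27, 28 and 29 fragments.

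A site facing an insulin gene was in the same set. It lay on chromosome 19 (51901195 to 51901723), 362.6 kb from Ins1 and in a gap of 1585 kb that starts at Sorcs1, a sorting receptor gene. Pileups were 24 in control Arid1a, 31 in knockout Arid1a and 28 in HDAC6, over backgrounds of 3.67, 2.29 and 2.90 fragments, which gave folds of 5.35, 9.72 and 7.44. The summits fell within 4 bp, the closest of the 11 sites. On the X chromosome, a site 232.8 kb from Gm52435 (79922991 to 79923548) had 33, 42 and 41 fragments, and a site 788.6 kb from the protocadherin gene Pcdh19 (132793808 to 132794301) had 16, 22 and 30. The lowest of the 11, named here after its values were seen, was 380.4 kb from Khdrbs2 on chromosome 1 (31791515 to 31792234). It had 15, 11 and 9 fragments, where the smallest remote pileups of the 3 lists were 10, 8 and 9. Its summits spread over 235 bp.

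**Figure D3:**
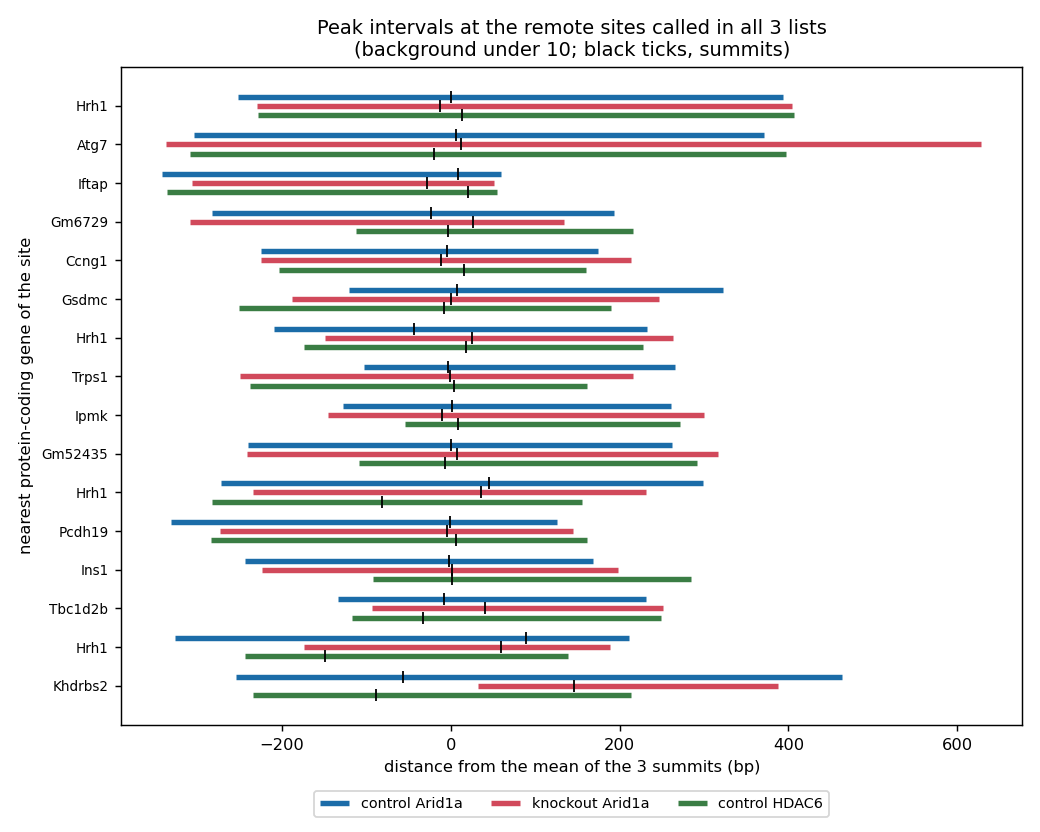
Horizontal bars give the interval of each list's peak at the 16 low-background remote sites in all 3 lists, in bp from the mean of the 3 summits, with black ticks for summits and the nearest protein-coding gene as label. Summits differ by 4 bp beside Ins1 and by 8 bp beside Trps1, and by over 200 bp at the Khdrbs2 site and at one site between Hrh1 and Atg7.

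The remote middle of the gap between Hrh1, a histamine receptor gene, and Atg7, an enzyme gene of autophagy, was the densest low-background group. Over 53.04 kb it held 13 control Arid1a, 8 knockout Arid1a and 10 HDAC6 peaks at 15 sites, 5 in all 3 lists, 6 in 2 and 4 in 1. The gap is 159.8 kb long, so its outer peaks fell under the limit and are not remote. The tallest remote site (114560825 to 114561483) had 67, 42 and 51 fragments in control Arid1a, knockout Arid1a and HDAC6, and the next (114565197 to 114566163) had 53, 38 and 55. At the other sites in all lists the pileups were 47, 24 and 31 (114551995 to 114552467), 26, 16 and 20 (114537345 to 114537926), and 29, 23 and 23 (114543068 to 114543606). The knockout pileup was below that of control Arid1a at each of these 5 sites, as was the knockout background. The HDAC6 pileup from control islets was also below that of control Arid1a at each of them except 114565197 to 114566163. None of the 15 sites was in the knockout list alone, while 2 were in control Arid1a alone and 2 in HDAC6 alone.

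**Figure D4:**
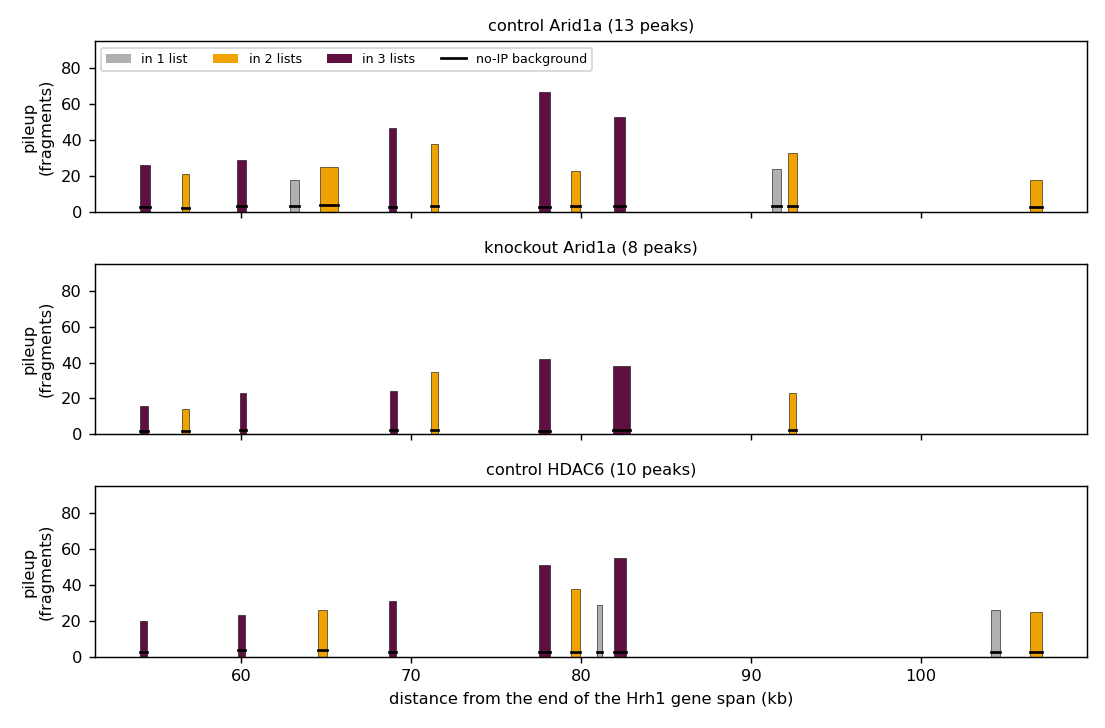
Bars give the pileup (fragments) of each remote peak between Hrh1 and Atg7 in the 3 lists, at its distance in kb from the end of the Hrh1 gene span and drawn to its length, coloured by the number of lists with a peak there; black lines give the no-IP background. The bars at about 78 kb reach 67, 42 and 51 fragments and those at about 82 kb 53, 38 and 55, and backgrounds stay between 1 and 4 fragments.

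High-background sites were gathered in few places. The highest pileup and background of each list were at chromosome 2, 98666617 to 98667275, about 1035 kb from Lrrc4c, with backgrounds of 33221, 24489 and 30974 fragments. The knockout list had 2 further peaks beside it, at 98662281 (5460 fragments) and 98664898 (16032 fragments), that no other list had. At the start of chromosome 9 (3000022 to 3038245), with Alkbh8, a tRNA-modifying enzyme gene, as nearest protein-coding gene and Mir101c just past the last peak, 38.22 kb held 15 sites, of which 9 were in all 3 lists, 3 in 2 and 3 in 1. Pileups there ran from 549 to 18396 fragments in control Arid1a, from 590 to 20433 in the knockout and from 610 to 19966 in HDAC6. The remaining sites of this kind in all lists were on chromosome 14, in the 445.9 kb between Gm41099 and Gm2244 (19415727 to 19419480; 37793, 40915 and 40107 fragments) and 123.9 kb past Fgf14, a fibroblast growth factor family gene (124801599 to 124802089; 538, 472 and 512 fragments). The chromosome 2 site had the largest pileup of each list, yet no fold at the 12 sites in all lists was above 3.78.

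The recovered backgrounds moved in step between lists. At the 28 sites in all lists, the knockout background was 0.766 times that of control Arid1a at the median, with a range of 0.624 to 0.954, and the ratio of the smallest backgrounds of these lists was 0.749. For HDAC6 against control Arid1a the median was 0.967, the range 0.789 to 1.17 and the ratio of the smallest backgrounds 0.914. So at every one of these sites the knockout background was the lower of the Arid1a pair. The sites nearest Iftap, Ccng1 and Trps1 had identical ratios, 0.795 for the knockout and 1.006 for HDAC6. Were 1 no-IP library scaled by 1 factor per list, such agreement would be fixed in advance. Whether that was so was not tested, and the 28 sites are not read as independent measurements of these ratios. A background lower by this factor alone raises a fold, so folds of different lists stand side by side as deposited, or rank sites, and no change is read from them. The part of the background in the recurrence of remote peaks was not tested.

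**Figure D5:**
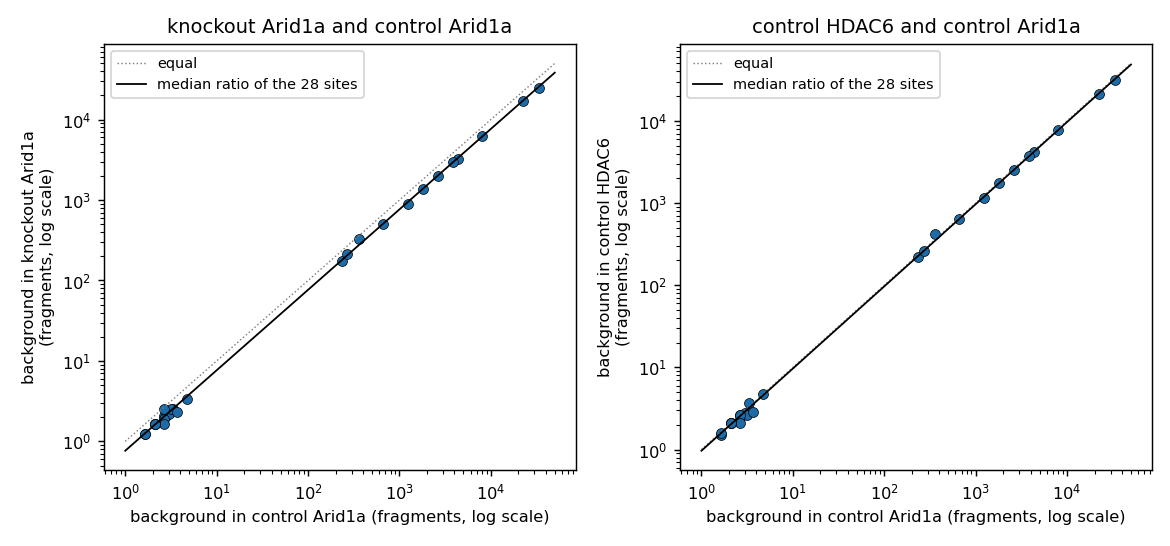
Each point is 1 of the 28 remote sites in all 3 lists, with the no-IP background in control Arid1a on the horizontal axis and that in knockout Arid1a (left) or control HDAC6 (right) on the vertical axis, in fragments on log scales; solid lines give the median ratio and dotted lines equality. Points follow the median ratios of 0.766 and 0.967 over the whole range, up to 33221 fragments in control Arid1a.

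Of the 29 sites in 2 lists, 12 were in the knockout Arid1a and HDAC6 lists, 9 in the control lists and 8 in the Arid1a lists, and the site with the highest lower fold of each pair is given here or with Dxz4. A site on chromosome 10 (47876471 to 47876953), 1217 kb from Grik2, a kainate receptor gene, had 36 fragments in the knockout and 33 in HDAC6 and no control Arid1a peak. Another, 499.2 kb from Jrkl on chromosome 9 (12743152 to 12743540), in the gap that starts at the contactin gene Cntn5, had 32 and 33 with its summits at the same base. The 2 genotypes, without HDAC6, shared a site between Hrh1 and Atg7 (chromosome 6, starting at 114554477; folds 9.33 in control and 10.3 in knockout), one between the nuclear receptor genes Rarb and Thrb (chromosome 14, starting at 17238767; folds 6.45 in control and 6.66 in knockout) and another beside the neurexin gene Nrxn3 (chromosome 12, starting at 90478594; folds 6.54 in control and 4.84 in knockout).

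At Dxz4, a tandem-repeat locus of the X chromosome known for folding the inactive X, the lists differed in the position called. RefSeq gives Dxz4 as a synonym of the long noncoding RNA gene 4933407K13Rik (X, 75725458 to 75764699, 39.24 kb), and the remote peaks there are remote because that gene is noncoding. Control Arid1a (75734596 to 75735607) and HDAC6 (75734658 to 75735135) overlapped with 30 fragments each and summits 34 bp apart, at folds of 11.8 and 12.4, and HDAC6 had a second remote peak at 75730878 with 12 fragments. The knockout list had no remote peak in the gene. It had peaks nearer to Pls3, the next protein-coding gene, at 75744533 (12 fragments), shared with control Arid1a, and at 75752719 (15 fragments), shared with HDAC6. In all, 7 peaks of the 3 lists lay in this gene at 4 positions, and every position was in at most 2 lists.

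Chromosome X held 22 of the 80 remote peaks of control Arid1a (27.5%, 18.1% to 38.6%), 35 of the 148 of the knockout (23.65%, 17.1% to 31.3%) and 20 of the 95 of HDAC6 (21.1%, 13.4% to 30.6%). Among nearer peaks its share was 14.3% (9.28% to 20.7%), 12.0% (7.98% to 17.1%) and 6.25% (2.74% to 11.9%), and the intervals met in control Arid1a, touched at 17.1% in the knockout and did not meet in HDAC6. Between Btbd35f23 and Btbd35f11, genes of a BTB-domain family with many copies, 130.2 kb (X, 3215843 to 3345995) held 6 sites, each in 1 list, with 3 control Arid1a peaks, 2 knockout peaks and 1 HDAC6 peak of 9 to 14 fragments. Between Btbd35f5 and Btbd35f12 of the same family, 51.27 kb held 3 knockout peaks of 8 to 10 fragments. Reads from near-identical copies may not be placed uniquely. How the authors treated them is not given in the sources used here.

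A comparable place on chromosome 8 was the array of 5S ribosomal RNA genes, where RefSeq has 41 n-R5s genes over 83.26 kb (123538784 to 123622046). Its middle held 2 remote peaks, each in 1 list, a knockout peak 323 bp from n-R5s129 (123588400 to 123588800, 13 fragments, fold 6.29) and an HDAC6 peak 581 bp from n-R5s131 (123592070 to 123592384, 13 fragments, fold 5.61). With the nearer peaks, 11 peaks of the 3 lists lay in or within 10 kb of the array, 3 from control Arid1a and 4 from each other list. Only the pair at 123540070 to 123541008, from the knockout and HDAC6 lists, overlapped.

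Most remote sites were in 1 list, and most of their peaks were small. The median pileup of peaks in 1 list was 14, 12 and 13 fragments in control Arid1a, knockout Arid1a and HDAC6, against 28, 27.5 and 29.5 at the 16 low-background sites in all lists. Lone peaks, in 1 list and over 100 kb from any other peak of any list, numbered 23 in control Arid1a, 81 in the knockout and 34 in HDAC6. These were 28.75%, 54.7% and 35.8% of the remote peaks, beside 26.1%, 48.8% and 36.3% of all peaks of each list, and each interval of the remote share held the share over all. A peak of another list lay within 10 kb of 6 of 35, 11 of 100 and 8 of 45 remote peaks in 1 list, without overlap. The same count was not made over all peaks in 1 list. A few of the remote peaks in 1 list were tall. In control Arid1a, a peak 89.86 kb from Cp, the gene of ceruloplasmin, a copper-carrying plasma protein, had 50 fragments and the highest remote fold of the list, 18.9 (chromosome 3, 19866655 to 19867071). A control Arid1a peak 138.9 kb from the forkhead gene Foxd1 (chromosome 13, 98495632 to 98495992) had 34 and a fold of 13.3.

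In the knockout, a peak of 49 fragments lay 201.7 kb from Cylc2, a sperm head cytoskeleton gene (chromosome 4, 51014395 to 51014925, fold 12.0). In HDAC6, a peak of 50 fragments lay 140.3 kb from Gli2, a transcription factor of hedgehog signalling (chromosome 1, 119194745 to 119195097, fold 17.4), and one of 27 fragments 172.3 kb from the cytokine gene Il15 (chromosome 8, 82575529 to 82575904, fold 10.8). Each of these 5 was in 1 list. Among the 10 remote peaks of highest fold per list, 2 in each list were in that list alone, while 6, 6 and 5 were in all 3.

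The remote peaks were flanked by 321 different protein-coding genes, 1.48% of the 21631 in the table, a share against which the small lists below have to be read. Only a gene bordering a long gap can flank a remote peak, and the share among such genes was not computed. A listed share above 1.48% is therefore no sign of a preference for these genes. Of 31 beta cell genes, 2 flanked a remote peak, Ins1 at the site in all lists and Foxa2, a forkhead factor of endoderm and islets. The Foxa2 site lay 447.5 kb from that gene and 220.0 kb from Pax1 (chromosome 2, 147595029 to 147595395), with 61 fragments in control Arid1a and 50 in the knockout over backgrounds of 16.2 and 16.7. Of 12 genes of other endocrine cells, 4 flanked remote peaks, which were 5 knockout peaks and 1 HDAC6 peak and no control Arid1a peak. The knockout peaks had 8 to 15 fragments. Among them, a peak of 10 fragments stood between the homeobox genes Irx1 and Irx2, and 3 peaks of 8 to 15 fragments lay 200.9 to 770.7 kb from Pou3f4, a POU-domain factor gene. The HDAC6 peak, with 12 fragments, lay 68.16 kb past Pou3f4. None of these 6 overlapped another list, and most were near the smallest pileups called.

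Genes of endocrine development (15), acinar cells (14), ductal cells (10) and stromal, vascular and immune cells (12) flanked 0 remote peaks; at the share of all genes, each of these lists would hold under 1 such gene. Of 52 adhesion and axon guidance genes, listed because they often border long gaps, 18 flanked 31 remote peaks (9.60%), namely 5 of control Arid1a (6.25%), 19 of the knockout (12.8%) and 7 of HDAC6 (7.37%). They included Lrrc4c, Cdh6, Cdh9, Cdh10, Nrxn3, Pcdh10, Pcdh17, Robo1, Slitrk1, Slitrk5 and Tenm4. The high-background peaks beside Lrrc4c (chromosome 2, 98662281 to 98667275) made up 1, 3 and 1 of these peaks, and a site in several lists counted once per list. The share over all peaks was not computed, and no difference between lists is read from these counts. A site 1208 kb from the axon guidance receptor gene Robo1 and 249.7 kb from Gbe1 on its other side (chromosome 16, starting at 70819370) had 19 fragments in the knockout and 16 in HDAC6. A flanking gene is the next gene along the chromosome, and nothing in these lists ties a remote peak to it.

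Annotated noncoding genes lay closer. The nearest RefSeq gene of any kind was a pseudogene for 143 remote peaks, a protein-coding gene for 61, a long noncoding RNA for 55 and a miRNA for 37, the last all at the start of chromosome 9. Still, only 2 control Arid1a, 4 knockout and 5 HDAC6 remote peaks overlapped the span of any RefSeq gene, and 9, 18 and 19 lay within 10 kb of one. Those inside long noncoding RNA genes, beside the Dxz4 peaks, included a control Arid1a peak of 27 fragments in Gm6602 (chromosome 3, 111905462 to 111905866) and an HDAC6 peak of 18 fragments in Gm33843 (chromosome 10, 96529541 to 96529995). The peaks' own sequence was not read here.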

How the data were processed

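ChIP-seq peaks of 3 libraries were analysed, 1 per group. The authors deposited 1 peak list per library, called against a no-IP library per the names in the files; the caller is not given in the sources used here. The submitters' processing notes name mm10 as the build and, without their roles, edgeR 3.4.6, Bowtie2 2.2.6, Bowtie, cutadapt and bedtools. Per the file headers, the lists hold the pileup, a signal of ChIP fragments at the summit, which is whole numbers. Fold enrichment, also deposited, is a ratio to the no-IP library. For each peak the authors also gave a −log10 p-value and a −log10 q-value.

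Background was recovered as (pileup + 1) / fold − 1. A Poisson p computed from it came within 1% of the deposited value, on the −log10 scale, at all 80, 148 and 95 remote peaks. Distances were measured to 21631 protein-coding gene spans of a RefSeq table (GRCm38.p6, the coordinates of mm10), read as names, spans and kinds. Peaks were overlapped by at least 1 bp and summarised with Python 3.11.15, pandas 2.3.3 and SciPy 1.17.1. The overlap and distance code was tested on simulated data, where overlaps were also counted with bedtools 2.31.1. Positions are 1-based. Shares carry exact 95% binomial intervals. Reads per library are not given in the sources used here, so depth was judged from the smallest background alone, a rough guide. For HDAC6 over control Arid1a, the ratio of smallest backgrounds was 0.914. At the 11 low-background sites in all lists outside Hrh1 to Atg7, the median background ratio was 1.006.

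Regions were named by a rule: the 10 highest folds per list, up to 15 sites in all lists ranked by their lowest fold, the highest pileup and background, the farthest peak, the 2 peaks on each side of the distance limit, peaks flanked by a listed gene, and groups of 3 or more remote peaks joined within 100 kb. Regions of other kinds (sites in 2 lists, Dxz4, the 5S array, Robo1, and peaks inside noncoding genes) were chosen after their values were seen. The rule for remote peaks and the gene lists were chosen with earlier results of these data known. Other distance limits, gene sets, overlaps, joins and filters on background and q were also run. Some genes and peaks that fall under the rule are not reported here. Peaks on other sequences than the named chromosomes were left out.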

Additional observations from a re-analysis of the deposited data

How the results depend on the processing

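Of 111 values recomputed under other settings, 89 moved by less than their counting interval, or by less than 1.5 times for counts, and 22 moved by more. The number of remote peaks turned mainly on the limit and the genes used. At a limit of 100 kb, 52 control Arid1a peaks were remote, and the shares of each list (control Arid1a, knockout Arid1a, control HDAC6) were 21.58%, 33.15% and 28.7%; at 25 kb they were 48.13%, 50.14% and 51.57%. Measured to gene spans of any kind, 42, 74 and 42 peaks were remote (17.43%, 20.27% and 18.83%). Without genes with numbered Gm names or names ending in Rik, 132 control Arid1a peaks were remote, and the shares were 54.77%, 50.96% and 54.26%. After joining peaks within 100 kb, the remote share of control Arid1a was 41.79%. Among peaks with a background under 10, the shares in both other lists were 23.88%, 12.6% and 20.51%. With background taken as pileup over fold, the knockout median was 2.558 fragments. A q limit of 0.01, distances from the summit, overlap of 50%, intervals up to 500 bp apart and joins at 10 or 1000 kb moved no value beyond these bounds. No paired analysis was possible because each group has 1 library. The small number of peaks limits every share, and the absence of a peak from a list is no measured level of 0.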
